A study of Mus musculus with 8 samples.

Results

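The annexins, the S100 proteins and the galectins are 3 families of small soluble proteins that act at membranes, in calcium signalling and at the cell surface. Their members were taken by gene name from the array: every non-control probe whose name in the scanner files begins with Anxa, S100a or Lgals and a number, or is S100b. This gave 45 of 41174 probes, and 36 of 27962 gene names. Annexins held 19 probes of 12 genes, S100 genes 14 probes of 14 genes and galectins 11 probes of 9 genes. The remaining probe was for Lgals3bp, a secreted glycoprotein that binds galectins and is no galectin itself.

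Cells of the R1 line, mouse embryonic stem cells, had been kept in 0.2 mM sodium butyrate without LIF for 15 passages (4 samples) or in LIF without feeder cells (4 samples), all on gelatin in medium with serum replacement. Butyrate inhibits histone deacetylases, and LIF, leukaemia inhibitory factor, is the cytokine that keeps mouse embryonic stem cells undifferentiated. Total RNA was measured on 4 two-colour Agilent arrays on 1 slide, each with a Cy5-labelled butyrate sample and the Cy3-labelled LIF sample that shares its number. The groups differ in both LIF and butyrate, and every array has the same dye orientation, so LIF withdrawal, butyrate and dye cannot be told apart. A passage number is listed for the butyrate samples only, so any difference in time in culture cannot be told apart from these either. The data come from 1 cell line. The quadruplicates are labelled independent, with no separate derivation named, so a p-value reflects the spread of these samples only, part of which may be technical.

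Annexins bind acidic phospholipids when calcium is present, and they take part in membrane repair, vesicle traffic and the resolution of inflammation. S100 proteins are paired EF-hand calcium sensors, and several of them bind a particular annexin. Galectins bind galactose-containing sugars on glycoproteins, and cells release them without a signal peptide. In the mouse most S100 genes lie in a row on chromosome 3, beside the genes of the epidermal barrier.

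The promoter windows of 4 members are shown because these genes rose at least 2-fold in butyrate and stand for the 3 families: S100a4 and S100a6, which are close neighbours in the S100 row, Anxa1, which changed most among the annexins, and Lgals3. Each window is the 250 bases before the start of the gene in RefSeq (mouse, GRCm38.p6), 5′ to 3′ on the strand of the gene. Capitals mark motif matches in either direction. The TATA box was searched as TATAAA and the GC box as GGGCGG. The other motif shown is the CCAAT box. The windows are chr3:90603520-90603769 (plus strand) for S100a4, chr3:90612644-90612893 (plus strand) for S100a6, chr19:20390672-20390921 (minus strand) for Anxa1 and chr14:47373610-47373859 (plus strand) for Lgals3.
S100a4: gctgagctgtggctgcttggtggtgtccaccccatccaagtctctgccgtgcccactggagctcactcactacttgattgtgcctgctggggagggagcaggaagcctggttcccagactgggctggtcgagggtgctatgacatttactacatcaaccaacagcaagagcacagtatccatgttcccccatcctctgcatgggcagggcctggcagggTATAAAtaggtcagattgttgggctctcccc
S100a6: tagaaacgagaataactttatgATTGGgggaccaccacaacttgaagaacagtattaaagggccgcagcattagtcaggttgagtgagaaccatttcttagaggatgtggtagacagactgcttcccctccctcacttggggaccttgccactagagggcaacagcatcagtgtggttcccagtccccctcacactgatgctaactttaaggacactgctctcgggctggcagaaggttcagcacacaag
Anxa1: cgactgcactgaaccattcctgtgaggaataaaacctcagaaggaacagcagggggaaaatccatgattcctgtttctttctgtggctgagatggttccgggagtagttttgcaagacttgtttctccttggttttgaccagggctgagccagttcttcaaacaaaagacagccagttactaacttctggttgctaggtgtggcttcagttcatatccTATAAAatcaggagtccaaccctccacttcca
Lgals3: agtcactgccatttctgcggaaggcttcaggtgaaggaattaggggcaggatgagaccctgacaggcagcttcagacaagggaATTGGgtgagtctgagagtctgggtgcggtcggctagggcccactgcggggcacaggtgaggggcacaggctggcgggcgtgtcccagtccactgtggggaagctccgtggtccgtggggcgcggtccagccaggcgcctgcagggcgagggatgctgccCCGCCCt

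In the S100a4 window the TATA box covers bases −31 to −26, and in the Anxa1 window bases −32 to −27, counted back from the start. S100a6 has no TATAAA in its window but a reversed CCAAT box at bases −228 to −224. Lgals3 has a reversed GC box at bases −7 to −2 and a reversed CCAAT box at −167 to −163. Of the member genes, 28 had a RefSeq window, in 35 windows. GGGCGG was found in 10 of these 35 windows and in 32.7% of all 32851 mouse windows. TATAAA was found in 6 (12.4% of all), CCAAT in 7 (33.8% of all) and the AP-1 site TGANTCA in 4 (6.75% of all), both strands counted each time. No motif was shared by the whole set, and among the 7 genes that rose at least 2-fold and have a window, GGGCGG was in 2, TGANTCA in 1, TATAAA in 2 and CCAAT in 3.

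Most members that could be measured were higher in butyrate. A probe was tested where it was well above background on at least 3 of 4 arrays in either channel, and passed at an adjusted p of 0.05 in limma with Benjamini-Hochberg adjustment over 25661 tested probes. Of the 45 member probes 35 were tested, for 29 genes, and 26 of them (74.3%) were higher in butyrate and 2 (5.71%) lower. Over all tested probes 39.7% were higher and 32.5% lower, 72.2% in either direction, so a call by itself is common in these data. At least 2-fold higher were 9 member probes, each under a different gene name, or 25.7% of those tested, against 4.10% of all probes. Among the 9, the probes for Lgals4 and Lgals6 may measure near-identical RNAs. No member was 2-fold lower with loess, where 1.61% of all probes were. The median log2 ratio of butyrate over LIF was 0.56 over the tested members and 0.03 over all tested probes.

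**Figure D1:**
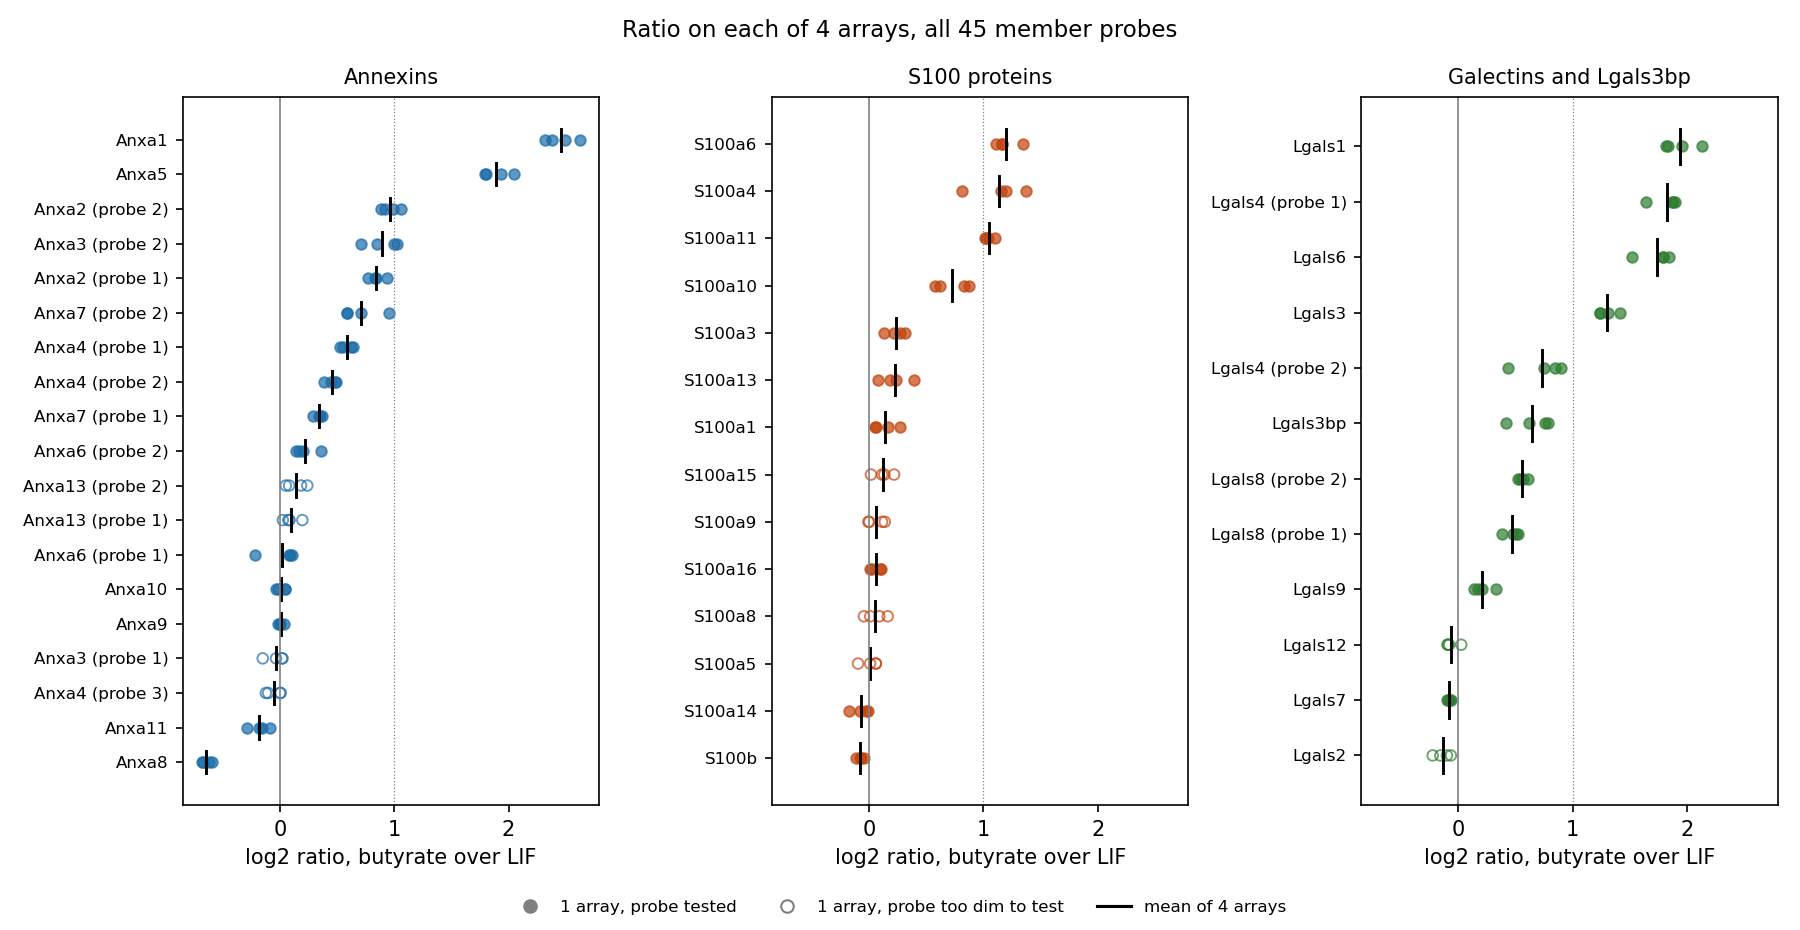
The log2 ratio of butyrate over LIF (x axis, 1 unit is a 2-fold difference) of all 45 member probes, 1 row a probe, in 3 panels for annexins, S100 proteins and galectins with Lgals3bp. Each point is 1 of 4 arrays, a bar is the mean, open points are probes too dim to test, and the dotted line is 2-fold. Anxa1 stands highest at a mean of 2.46 and Anxa8 lowest at −0.64.

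Levels below are log2 intensities of a sample after loess within arrays and Aquantile between them, and log2 ratios are butyrate over LIF within an array, with the SD over 4 arrays. In 26 of the 35 tested members every butyrate sample lay above every LIF sample (36.7% of all tested probes), and in 3 every butyrate sample lay below (28.6% of all). RNA was measured in bulk, so a change in the RNA of each cell and a change in the share of cells that make it cannot be told apart. A probe's level depends on its own sequence, so levels are set side by side only within a probe.

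Among the annexins, Anxa1 and Anxa5 rose most. Of 15 tested annexin probes 10 were higher, 2 lower and 3 did not pass, and their median log2 ratio was 0.45. Anxa1, a glucocorticoid-induced protein that limits inflammation through formyl peptide receptors, had levels of 13.78, 13.69, 13.67 and 13.79 in butyrate samples 1 to 4, against 11.29, 11.31, 11.35 and 11.16 in the LIF samples. The groups lay far apart and the samples within each close together. It was 5.49-fold higher (log2 ratio 2.46 ± 0.13, adjusted p = 1.33e-08 in limma).

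Anxa5, which binds the phosphatidylserine exposed by dying cells, had levels of 11.75, 11.73, 11.75 and 11.99 in the butyrate samples, against 9.95, 9.94, 9.82 and 9.95 in the LIF samples. Butyrate sample 4 was the highest and LIF sample 3 the lowest, and the groups did not overlap. It was 3.72-fold higher (log2 ratio 1.89 ± 0.12, limma adjusted p = 3.05e-08).

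The other annexins that rose did so by less than 2-fold. Anxa2, which carries plasminogen activation to the cell surface together with S100a10, was higher on both of its probes, with log2 ratios of 0.84 ± 0.07 and 0.97 ± 0.08. Anxa3 had a log2 ratio of 0.90 ± 0.15 on its tested probe, and its other probe stayed near background on all 4 arrays. Anxa4, an annexin of secretory epithelia, had 0.58 ± 0.05 and 0.45 ± 0.05 on its 2 tested probes. A further probe stayed near background on all 4 arrays. Anxa7, also called synexin after its part in the fusion of secretory granules, had 0.34 ± 0.03 and 0.71 ± 0.17. Its dimmer probe, the second, was 1.36 with the scanner software's ratio. With arrays centred on their median in place of loess, that probe was 1.06, and several others also exceeded 2-fold. These were Anxa2 (1.44 and 1.56), Anxa3 (1.44) and the brighter Anxa4 probe (1.14). The other tested probes of Anxa4 and Anxa7 stayed below 2-fold, at 0.97 and 0.91.

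Anxa6, an annexin with a doubled core of repeats, gave probes that disagreed. Its brighter probe did not pass (log2 ratio 0.01 ± 0.15), with array 1 at −0.21 and the others at 0.08 to 0.11. The dimmer one passed at 0.22 ± 0.10 and lay near the background. With median centring the brighter one was 0.57 and passed, and the dimmer one was 0.22 and did not.

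Anxa8 and Anxa11 were lower with loess normalization. Anxa8 was printed 10 times on each array, and its levels averaged 9.21 ± 0.02 in butyrate and 9.86 ± 0.04 in LIF (SD, n = 4 samples each). It was 1.56-fold lower (log2 ratio −0.64 ± 0.04, limma adjusted p = 1.17e-06), and the SD between its 10 spots of an array was 0.03 to 0.05. With arrays centred on their median in place of loess, its log2 ratio was −0.06 and no longer passed. Anxa11, which carries RNA granules on lysosomes and binds S100a6, was lower by little (−0.18 ± 0.09, adjusted p = 0.00562) and came out at 0.38 with that centring. Anxa9 and Anxa10 both had a log2 ratio of 0.01 and did not pass. Neither of the 2 probes for Anxa13, an annexin of the intestine, was bright enough to test.

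Among the S100 genes, S100a6, S100a4 and S100a11 were at least 2-fold higher, and no S100 gene passed as lower in the main setting (loess, offset of 50). Of 10 tested S100 genes 7 were higher and 3 did not pass. The median log2 ratio of the tested S100 genes was 0.23, the smallest of the 3 families.

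S100a4, known as fibroblast-specific protein and as a partner of non-muscle myosin in motile cells, had levels of 9.14, 9.05, 9.14 and 9.27 in the butyrate samples, against 7.99, 8.24, 7.95 and 7.89 in the LIF samples. LIF sample 2 was the highest of its group, and array 2 gave the smallest ratio, 0.81. The groups did not overlap. S100a4 was 2.19-fold higher (log2 ratio 1.13 ± 0.24, limma adjusted p = 3.97e-06), with the widest spread of the 3.

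S100a6, also called calcyclin, had levels of 14.07, 14.03, 14.04 and 14.23 in the butyrate samples, against 12.91, 12.92, 12.88 and 12.88 in the LIF samples. The 4 LIF samples were nearly alike, and the groups did not overlap. S100a6 was 2.29-fold higher (log2 ratio 1.19 ± 0.10, limma adjusted p = 1.75e-07).

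S100a11, a partner of Anxa1, had levels of 11.36, 11.47, 11.39 and 11.56 in the butyrate samples, against 10.32, 10.45, 10.38 and 10.46 in the LIF samples. Samples of the same array were high or low together, so the ratio varied less than either level. S100a11 was 2.06-fold higher (log2 ratio 1.05 ± 0.04, limma adjusted p = 1.01e-07).

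**Figure D2:**
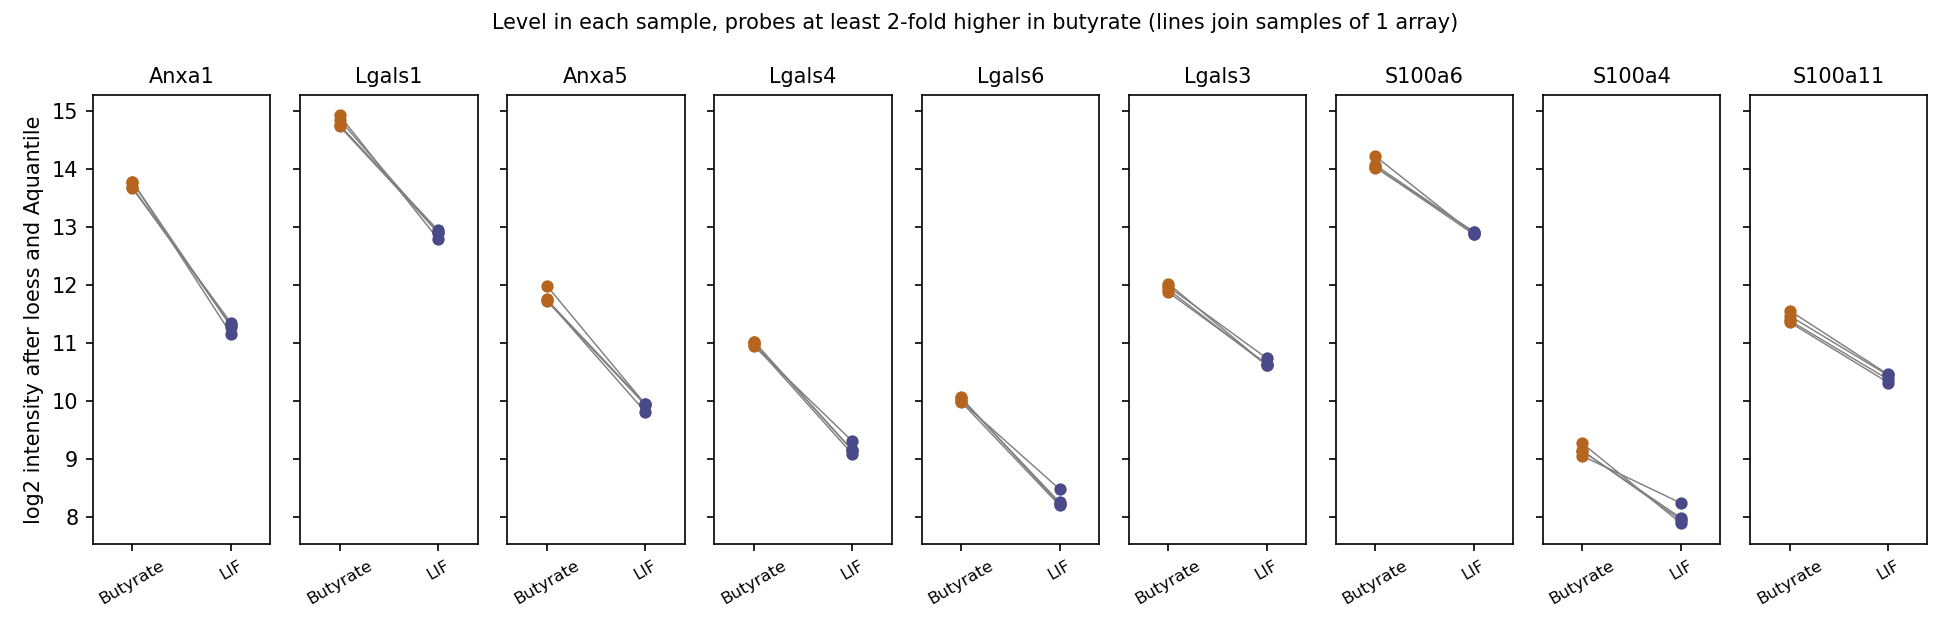
The log2 intensity (y axis, after loess and Aquantile) of the 9 probes that were at least 2-fold higher, 1 panel a gene, with butyrate samples on the left and LIF samples on the right. Each point is 1 sample, and lines join the samples of 1 array. In each panel the 4 butyrate samples lie above the 4 LIF samples, and LIF sample 2 of S100a4 (8.24), Lgals4 (9.31) and Lgals6 (8.48) lies above the others of its group.

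S100a10, the partner that holds Anxa2 in the calpactin complex, was higher at a log2 ratio of 0.73 ± 0.15. S100a3 (0.23 ± 0.08), S100a13 (0.22 ± 0.13) and S100a1, a heart and muscle S100 protein (0.14 ± 0.10), passed with small ratios. S100a14 (−0.07), S100a16 (0.06) and S100b (−0.08), the S100 protein of glia, did not pass. S100a14 passed as lower with the scanner software's ratio (−0.25), S100b with an offset of 16 (−0.11), and S100a16 passed as higher with median centring (0.38). S100a5, S100a15, S100a8 and S100a9, the last 2 being the subunits of calprotectin in neutrophils, were not tested. S100a5 and S100a8 were never well above background, and S100a15 and S100a9 on only 1 array, in butyrate. S100a15 is the array's name for the gene RefSeq calls S100a7a.

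Of the 14 S100 genes 13 lie on chromosome 3, in the RefSeq order S100a1, S100a13, S100a14, S100a16, S100a3, S100a4, S100a5, S100a6, S100a15, S100a8, S100a9, S100a11 and S100a10. The 4 genes with the highest ratios did not form 1 unbroken block. S100a4 and S100a6 have S100a5 between them, which was too dim to test, and S100a11 and S100a10 come last, after S100a15, S100a8 and S100a9. The order hides a wide gap there. In RefSeq the first coordinate of S100a9 is 90692630 and that of S100a11 is 93520496. At the other end S100a1, S100a13, S100a14, S100a16 and S100a3 had log2 ratios of −0.07 to 0.23. The median log2 ratio of all 1074 tested probes of chromosome 3 was 0.02, which differed from the median of the other autosomes by −0.01.

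**Figure D3:**
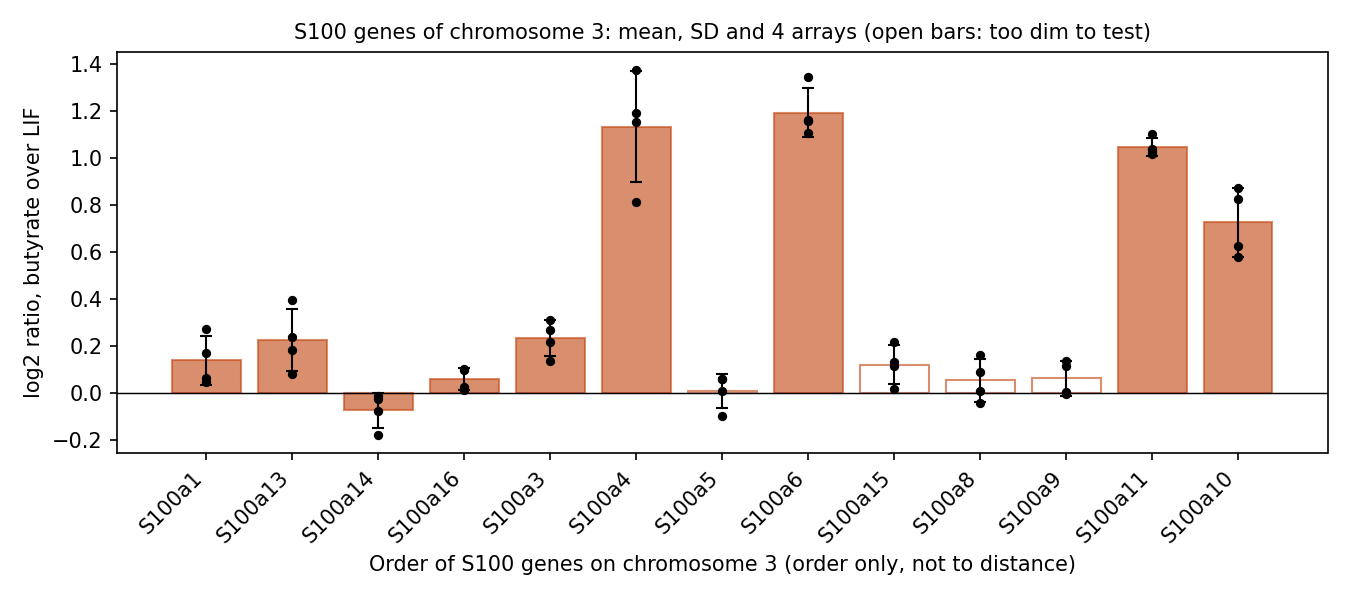
The mean log2 ratio of butyrate over LIF (y axis) of the 13 S100 genes of chromosome 3 in their order along it (x axis, not to distance). Whiskers are the SD over 4 arrays, points are the arrays, and open bars are probes too dim to test. S100a4 (1.13), S100a6 (1.19), S100a11 (1.05) and S100a10 (0.73) stand above the others, which lie between −0.07 and 0.23.

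Known pairs of an S100 protein and an annexin can be set side by side. Anxa2 was higher at 0.84 and 0.97 on its probes, and its partner S100a10 at 0.73. Anxa1 was higher at 2.46 and its partner S100a11 at 1.05. In the pair of S100a6 and Anxa11, S100a6 was higher at 1.19 while its partner was lower at −0.18 with loess and positive, at 0.38, with median centring. All of these ratios come from the same 4 arrays and no test was made between genes.

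Galectins had the highest median log2 ratio of the 3 families in the main setting, 0.73, with 8 of 9 tested probes higher and 1 that did not pass. That median is the ratio of the dimmer Lgals4 probe, whose size depended on the processing (below). The 9 probes stand for 7 gene names, and those for Lgals4 and Lgals6 may measure near-identical RNAs, so the 9 are not separate observations. Lgals1, a galectin that works as a dimer and is abundant in mesenchyme, had levels of 14.86, 14.76, 14.74 and 14.93 in the butyrate samples, against 12.90, 12.95, 12.91 and 12.80 in the LIF samples. Every butyrate sample was well above every LIF sample. Lgals1 was 3.82-fold higher (log2 ratio 1.93 ± 0.15, limma adjusted p = 4.61e-08).

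Lgals3, the galectin with a collagen-like tail that forms larger assemblies, had levels of 11.93, 11.88, 11.98 and 12.03 in the butyrate samples, against 10.62, 10.64, 10.74 and 10.62 in the LIF samples. The samples within a group were close, with the groups more than 1 log2 unit apart. Lgals3 was 2.46-fold higher (log2 ratio 1.30 ± 0.08, limma adjusted p = 7.5e-08). Lgals3bp, the glycoprotein that binds it, was higher at 0.64 ± 0.17.

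Lgals4, a galectin of the gut lining with 2 sugar-binding domains, had levels of 11.02, 10.95, 10.98 and 11.03 in the butyrate samples, against 9.15, 9.31, 9.09 and 9.15 in the LIF samples, on its brighter probe. LIF sample 2 was the highest of its group, and array 2 had the smallest ratio, 1.64, where the others had 1.87 to 1.90. This probe was 3.53-fold higher (log2 ratio 1.82 ± 0.12, limma adjusted p = 3.52e-08). The dimmer probe was 1.66-fold higher (0.73 ± 0.21), so the probes had the same direction. Their difference in size depended on the processing: the dimmer probe was 0.97 with an offset of 16 and 1.45 with the scanner software's ratio, where the brighter one was 1.88 in both.

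Lgals6 is a near-identical neighbour copy of Lgals4 known in some mouse strains, so which of the genes its probe measured is uncertain. It had no entry in the RefSeq table, unlike the other 44 member probes, and keeps the array's name. Its levels were 10.05, 9.998, 10.06 and 9.99 in the butyrate samples, against 8.26, 8.48, 8.22 and 8.20 in the LIF samples, with LIF sample 2 again the highest of its group. It was 3.33-fold higher (log2 ratio 1.73 ± 0.15, limma adjusted p = 7.75e-08).

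Lgals8, a galectin that detects damaged vesicles, was higher at 0.47 ± 0.06 and 0.56 ± 0.04 on its probes. Lgals9, a galectin of immune regulation, was higher at 0.21 ± 0.09. Lgals7, a galectin of stratified epithelium, had a log2 ratio of −0.08 ± 0.01 and did not pass (adjusted p = 0.0624), although all 4 butyrate samples lay below the LIF samples. Its signal was near the background. It passed as lower with no background subtraction (−0.13), an offset of 16 (−0.14) and median centring (−0.22). With the scanner software's own ratio, which adds no offset, it was −0.93 and passed. In the authors' deposited value table it was −1.03, at least 2-fold lower, and passed. Lgals2 and Lgals12 were not tested.

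The medians of 3 autosomes were above those of the others, and some members lie there. The median log2 ratio was 0.25 on chromosome 8, 0.19 on chromosome 11 and 0.16 on chromosome 19, where the median of the other autosomes was 0.01, 0.01 and 0.02. Anxa1 on chromosome 19 was 2.30 above its chromosome's median. On chromosome 11, Lgals3bp was 0.45 above it, the dimmer probe of Anxa6 and Lgals9 were each 0.02 above it, and the brighter probe of Anxa6 differed from it by −0.18. Anxa10, the member on chromosome 8, differed from its chromosome's median by −0.24. The part of the chromosome in these ratios was not tested. Among the 26 members that were higher, array 2 had the lowest ratio for 19 and array 4 the highest for 16, and over all probes that were higher these shares were 48.9% and 31.2%.

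Without loess, with each array centred on its median, the median of all tested probes was 0.37, and 92.0% of the probes that passed were higher in butyrate, where it was 55.0% with loess. Under that centring 28 of 35 members were higher, against 55.4% of all tested probes, and 18 were at least 2-fold higher, the same 9 among them, against 14.0% of all. The members' median exceeded that of all tested probes by 0.53 with loess, by 0.65 with centring and by 0.65 with the scanner software's ratio. With no filter on dim probes, over all 45 members, it exceeded that of all probes by 0.22.

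**Figure D4:**
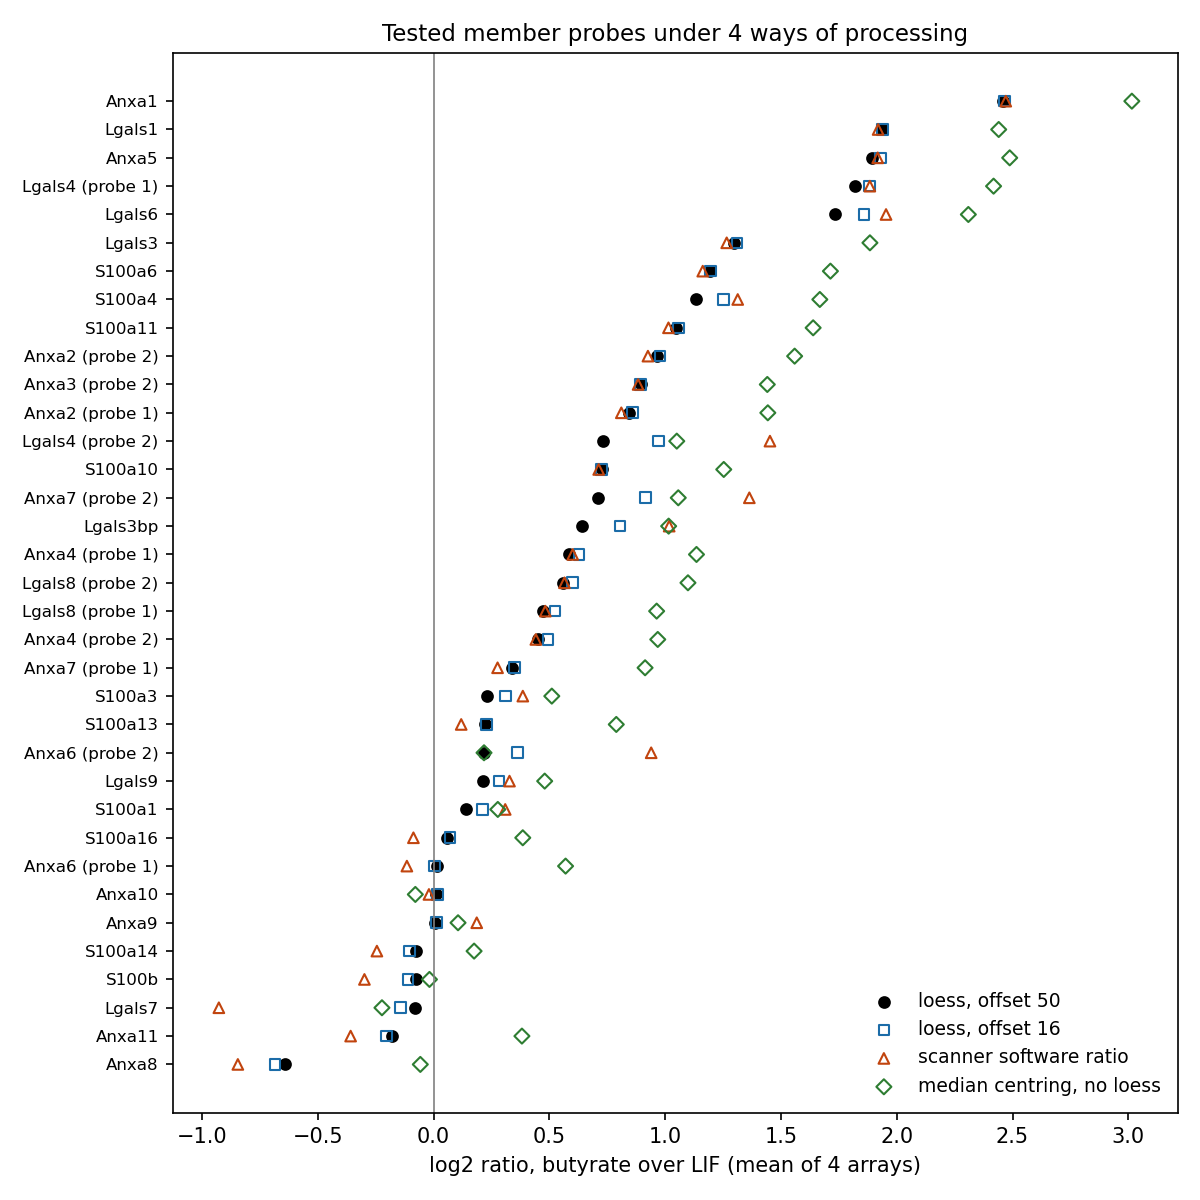
The mean log2 ratio of butyrate over LIF (x axis) of the 35 tested member probes, 1 row a probe, under 4 ways of processing. Filled circles are loess with an offset of 50, squares loess with an offset of 16, triangles the scanner software's ratio and diamonds median centring without loess. The 9 uppermost probes stay at or above 1 in each, Anxa11 changes sign with centring (0.38), and the dimmer probe of Anxa6 is at 0.22 with loess and at 0.94 with the scanner ratio.

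Genes known to work with these families were counted on 1 probe a gene, where 41.7% of 17190 tested genes were higher, 33.3% lower and 75.0% called in either direction. Of 14 tested partners of annexins in plasminogen activation and membrane repair 12 were higher and 2 lower, with a median log2 ratio of 0.86. Plau, among those higher, was not well above background in any LIF sample, so it was tested through its butyrate signal only. Plat, tissue plasminogen activator, was 4.76-fold higher (2.25 ± 0.22), and Ahnak, a large scaffold bound by Anxa2 and S100a10, 4.42-fold (2.14 ± 0.36). Capns1, the small calpain subunit, was lower at −0.60 ± 0.12 with loess and stood at −0.01 with median centring. Capn1, a calpain protease, was lower at −0.13 ± 0.11 with loess but positive, at 0.33, with median centring.

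Of 12 tested relatives and binding partners of S100 proteins 6 were higher, 3 lower and 3 did not pass, with a median of 0.08. S100g, among those higher, was not well above background in any LIF sample, so it was tested through its butyrate signal only. Myh9, the non-muscle myosin heavy chain that S100a4 binds, was 3.43-fold higher (1.78 ± 0.22). Tchh, an S100-fused protein of hair follicles (0.76 ± 0.23), and Calm2, a calmodulin gene (0.56 ± 0.04), were also higher. Cacybp, which binds S100a6, was lower at −0.65 ± 0.06 and Calb2, or calretinin, at −0.49 ± 0.10. Calm3, another calmodulin gene, was lower at −0.38 ± 0.03 with loess but positive, at 0.18, with centring.

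Copines and synaptotagmins are other calcium-dependent phospholipid binders. With loess 4 of 11 tested genes were higher, 4 lower and 3 not passed, and the median was 0.01. Over all tested genes 41.7% were higher and 33.3% lower. With median centring 7 of the 11 had a positive ratio, and the median was 0.36. Cpne2 (1.28 ± 0.17), Cpne7 (0.59 ± 0.19) and Cpne1 (0.41 ± 0.04) were the higher copines. Cpne5 was 2.65-fold lower (−1.41 ± 0.07) and Cpne9 1.48-fold (−0.57 ± 0.11). Syt4, a synaptotagmin, passed as lower but was not well above background in any butyrate sample, so no fold is given.

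Of 18 tested galectin relatives, ligands and glycan enzymes 13 were higher, 2 lower and 3 did not pass, with a median of 0.64. Nrp1, among those higher, was well above background in only 1 LIF sample. Cd44, the hyaluronan receptor, was 3.34-fold higher (1.74 ± 0.28). The integrin chain Itgb1 was 2.59-fold higher (1.38 ± 0.06) and Lgalsl, a galectin-like protein, 2.36-fold (1.24 ± 0.06). Mgat3, the enzyme that adds a bisecting sugar and so stops branching, was 2.09-fold lower (−1.06 ± 0.14), and the T cell protein Cd7 was lower by little (−0.09 ± 0.04). Mgat5, whose branches galectins bind well, did not pass (0.09 ± 0.06).

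Markers of several cell types moved along with the members, and their part in these results was not tested. They too were counted on 1 probe a gene, where 41.7% of all tested genes were higher and 33.3% lower. All 10 embryonic stem cell markers were well above background in both groups. So were Cdx2, Gata2 and Col1a1 of the other lists, so signal above background does not by itself name the cell type. With loess 8 of the 10 stem cell markers were lower and 1 higher, among them Esrrb (−1.58), Pou5f1 (−1.57) and Sox2 (−1.24), with Nanog higher at 0.23. Their summed linear intensity was 109751 to 120160 in butyrate and 158682 to 168605 in LIF, which includes Dppa5a, saturated on all 4 arrays in both channels. In such a sum, here and in the lists below, the brightest probes weigh most, so it does not measure the amount of a cell type. With median centring 4 of the 10 had a positive ratio.

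Of 11 tested fibroblast markers, S100a4 being one of them, 10 were higher and 1 lower. Col1a1 (4.15), Postn (3.22) and Col1a2 (1.72) rose most, and Thy1 was lower at −0.18 with loess and positive, at 0.40, with centring. Their summed intensity was 23112 to 24465 in butyrate and 7097 to 7773 in LIF. Lum was too dim to test, and Dcn and Col6a1 were not well above background in any LIF sample.

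All 10 tested markers of trophoblast and simple epithelium were higher, led by Krt19 (2.93), Cdx2 (2.77) and Gata2 (2.66), with a summed intensity of 135388 to 140800 in butyrate and 31581 to 35543 in LIF. Krt8 and Krt18 were saturated in butyrate, and Tpbpa was too dim to test. Elf5 was not well above background in any LIF sample, so it was tested through its butyrate signal only. Of 7 tested endoderm markers 6 were higher, led by Col4a1 (2.70), Sparc (1.94) and Sox17 (1.03), with a sum of 19473 to 21039 in butyrate and 6163 to 6539 in LIF. Gata4 did not pass, and Ttr was too dim to test. Afp, among those higher, was not well above background in any LIF sample.

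Of 9 myeloid markers only 5 could be tested. Higher were 3 of those, Csf1r (0.99), Fcer1g (0.18) and Lyz2, which was not well above background in any LIF sample. Over all tested genes 41.7% were higher, so this count on few genes says little by itself. The summed intensity of the tested myeloid markers was 984 to 1039 in butyrate and 816 to 890 in LIF. The defining leukocyte genes Ptprc, Itgam, Adgre1 and Tyrobp were too dim to test in either group, as were the neutrophil genes S100a8 and S100a9.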

How the data were processed

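The 8 samples were measured on 4 Agilent whole mouse genome arrays on 1 slide, with 1 scan shared by both samples of an array. The submitters' processing notes name Agilent Feature Extraction 9.1. For every spot the deposited scanner files hold the mean signal, median background and processed signal of each channel as an intensity. Per the file headers, they also hold a log10 ratio of Cy5 over Cy3 from which background and dye effects were removed by the scanner software. The value table deposited by the authors holds log2 values; its normalization tool was not named in the labels. Each of its columns correlated at 0.9996 or higher with the log2 processed signal of the same sample. The authors' genome build was not named in the labels or headers.

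With limma 3.58.1 in R 4.3.3, the background was corrected by normexp (offset 50) and each array was loess-normalized, with weight 0 for control spots. This offset makes folds of dim probes too small. Of 45018 spots 43379 were not controls, 14 outlier-flagged spots were dropped, and repeated spots were averaged by probe. The 4 log2 ratios were tested against 0 (lmFit, eBayes, Benjamini-Hochberg over 25661 probes). All probes of a member gene are shown, and partner and marker genes use their brightest tested probe. Probes were named through accession (22951), symbol (6659) or synonym (3109) in a RefSeq table of GRCm38.p6, and 8455 kept the file's name. Per channel 57.9% to 63.9% of spots were well above background. The median signal was 110 to 111.4 in butyrate and 62.8 to 66.0 in LIF, and precision is limited by the number of arrays.

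The members and lists were chosen with earlier results of these data known. Full values are given for S100a4 and each member that passed with the same sign on 4 arrays and at least 2-fold, and for each partner or marker list up to 3 genes in each direction that changed most. A gene selected by this rule is not reported here and was not replaced. A few further list genes were picked for mention once their values had been seen. The pairing comes from the shared array: deviations of same-numbered samples from group means correlated across probes at 0.25, 0.15, 0.30 and 0.21, those of other pairs at −0.22 to 0.09. Alternatives were other background correction and normalization, other filters, 1 probe a gene, another variance model, no or a random replicate block, each replicate left out, and the authors' table. Background correction, loess, averaging by probe and the limma fit were also run on simulated data, with known changes in brighter probes printed once. The filter on dim probes, the Aquantile levels, the lists and the motif search were not part of that run. Plots were made in matplotlib 3.10.9 under Python 3.11.15.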

Additional observations from a re-analysis of the deposited data

Results flagged for a closer look

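Of 105 groups of 4 values examined over the tested members (ratios, butyrate levels and LIF levels of each probe), 7 had 1 value far from the other 3 by Dixon's test. Chance flags about 1 in 20 such groups.

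The level of S100a14 was high on array 1 in both channels, at 7.3593 in butyrate sample 1, where the others had 7.0123 to 7.0479, and at 7.5386 in LIF sample 1, where the others had 7.0544 to 7.0915. For Anxa5, butyrate sample 4 stood above the others at 11.9939 (11.7325 to 11.7537), and LIF sample 3 below the others at 9.8155 (9.9371 to 9.9516), while its 4 ratios were not set apart. The brighter probe of Anxa6 had a ratio of −0.2148 on array 1, where the others had 0.0788 to 0.11. On array 2 the ratio was low for the brighter probe of Lgals4, at 1.6432 against 1.8674 to 1.897, and for Lgals6, at 1.5149 against 1.7888 to 1.845. These 2 probes may measure near-identical RNAs, so they are not separate observations.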

How the results depend on the processing

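The count of 26 higher members was 25 to 28 in every alternative run on 32 to 45 probes, and 20 of 29 with 1 probe a gene. The count of 2 lower members was 4 with an offset of 16, with the scanner software's ratio and with the authors' table. It was 3 with no background subtraction, and 1, Lgals7, with median centring. Members at least 2-fold higher numbered 18 with centring against 9 with loess, and 12 with the scanner's ratio and with the authors' table, always with the same 9 among them; over all tested probes these shares were 14.0%, 4.10%, 10.7% and 10.2%. The median of 0.56 became 1.01 with centring and 0.22 with no filter on dim probes, over 45 probes. Centring raised the median of all tested probes to 0.37 but did not move each probe alike. Anxa1 went from 2.46 to 3.02, the dimmer probe of Anxa6 stayed at 0.22, and Lgals7 went from −0.08 to −0.22. Anxa11 alone turned its sign while passing, at 0.38 with centring (adjusted p = 0.0314). S100a13 no longer passed with the scanner's ratio or the authors' table (adjusted p = 0.198 and 0.207). Leaving out each replicate gave 25 to 26 higher, 2 lower and 9 at least 2-fold higher, with a median of 0.5431 to 0.5707; S100a1 no longer passed without replicate 3 or without replicate 4 (adjusted p = 0.148 and 0.0794). With no replicate block the counts were again 26 higher, 2 lower and 9 at least 2-fold, and the random replicate block gave 26, 3 and 9, with Lgals7 passing as lower. Dim probes are limited by their signal over background: 10 members fell below the filter, and with no filter 3 of those 10 passed too, 2 higher and 1 lower, with neither channel well above background on 3 arrays.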
